A study of Mus musculus with 6 samples.

Results

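Transcripts of 10 pattern recognition genes were followed along the mouse colon: the Toll-like receptors Tlr1, Tlr2, Tlr3, Tlr4, Tlr5 and Tlr9, the cytosolic receptors Nod1 and Nod2, the adaptor Myd88 and the coreceptor Cd14. They were taken by gene symbol from 24346 listed entries, and all 10 were found. The epithelial cells came from the distal, middle and proximal colon of wild-type C57BL/6J mice of both sexes, with no treatment, and each region has 1 female and 1 male library (n = 2 per region, 6 libraries in all). C57BL/6J is an inbred laboratory strain. Neither the age of the mice nor the number of animals behind a library is given in the sources used here, nor whether animals were shared between regions. The p-values set a difference between groups against the spread left after region and sex, which is estimated in part from other genes. How far that spread is between animals is therefore not known, and part of it may be technical. Levels are FPKM (fragments per kilobase of transcript, scaled to the number of mapped fragments), a unit already scaled to transcript length, so levels of different genes can be set side by side. Values of a region are given for its female library first and its male library after it.

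Toll-like receptors are membrane proteins that bind microbial molecules and, through adaptors such as MyD88, start signalling to the transcription factor NF-kB. TLR2 recognises bacterial lipopeptides as a partner of TLR1 or TLR6, TLR4 recognises lipopolysaccharide with its coreceptors CD14 and MD-2, TLR5 recognises flagellin, TLR3 recognises viral RNA and TLR9 recognises unmethylated DNA. NOD1 and NOD2 sense peptidoglycan fragments inside the cell and signal through the kinase RIPK2. The colon epithelium faces dense commensal bacteria, and the place and amount of these receptors are held to shape its responses to them.

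The libraries were epithelial by their markers. Epcam was at 743 to 872 FPKM and Krt8 at 3318 to 4008 FPKM. Between distal and proximal colon limma called 0 of 8 epithelial markers, beside 14.1% of all genes, which does not show equal levels. Of the 8 markers, 3 had an unadjusted p under 0.05 (37.5%, beside 29.2% of all genes). One of these 3, Krt20, which marks surface colonocytes, was at 247 and 388 FPKM in distal, 355 and 803 in middle, and 851 and 694 in proximal colon (log2 difference of FPKM + 1 between distal and proximal colon -1.31, limma adjusted p = 0.062). Not all epithelial markers went this way: Cdh1 was at 370 and 356 FPKM in distal and 301 and 232 in proximal colon. In the female pair 4 of the 8 were higher and 4 lower in distal than in proximal colon, and in the male pair 6 and 2. The median log2 difference of the 8 was 0.13. Fibroblast, endothelial, muscle, neutrophil, B cell and neural markers each summed to at most 3.33 FPKM in a library. The summed level of 8 lymphocyte markers (T cells and intraepithelial lymphocytes; a ninth, Trdc, was not used here) was 4.65 and 3.91 FPKM in distal, 10.3 and 4.48 in middle, and 18.4 and 45.2 in proximal colon. That of 10 myeloid markers was 7.5 and 4.74 FPKM in distal, 10.5 and 6.23 in middle, and 11.7 and 16.8 in proximal colon. Both sums were highest in the 2 proximal libraries. By the spacing of their lowest values, the libraries held about 7.85 to 9.92 M fragments.

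In FPKM averaged over the 6 libraries, Tlr1 was the most abundant of the 10 (38.7), before Cd14 (27.6), Myd88 (26.8), Tlr2 (11.3), Tlr3 (9.58), Tlr4 (5.47), Nod1 (5.45), Tlr5 (4.17) and Nod2 (0.683). Tlr9 was listed at 0 in all 6 libraries. Between distal and proximal colon, 4 of the 9 genes that passed the filter on low values (at least 1 FPKM in at least 2 libraries) were past the threshold, a limma adjusted p under 0.05. Cd14 was higher in distal colon, and Tlr2, Tlr5 and Nod2 were lower. Of all 11815 genes tested, 14.1% were past the threshold in this comparison, 6.47% higher and 7.64% lower. Nod2 passed the filter only through its 2 proximal libraries, so its entry depended on being high there. The other 8 genes were above 1 FPKM in every library, and 3 of these 8 were called (1 higher, 2 lower). The median log2 difference was 0.13 over these 8 genes and 0.01 over all genes tested.

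**Figure D1:**
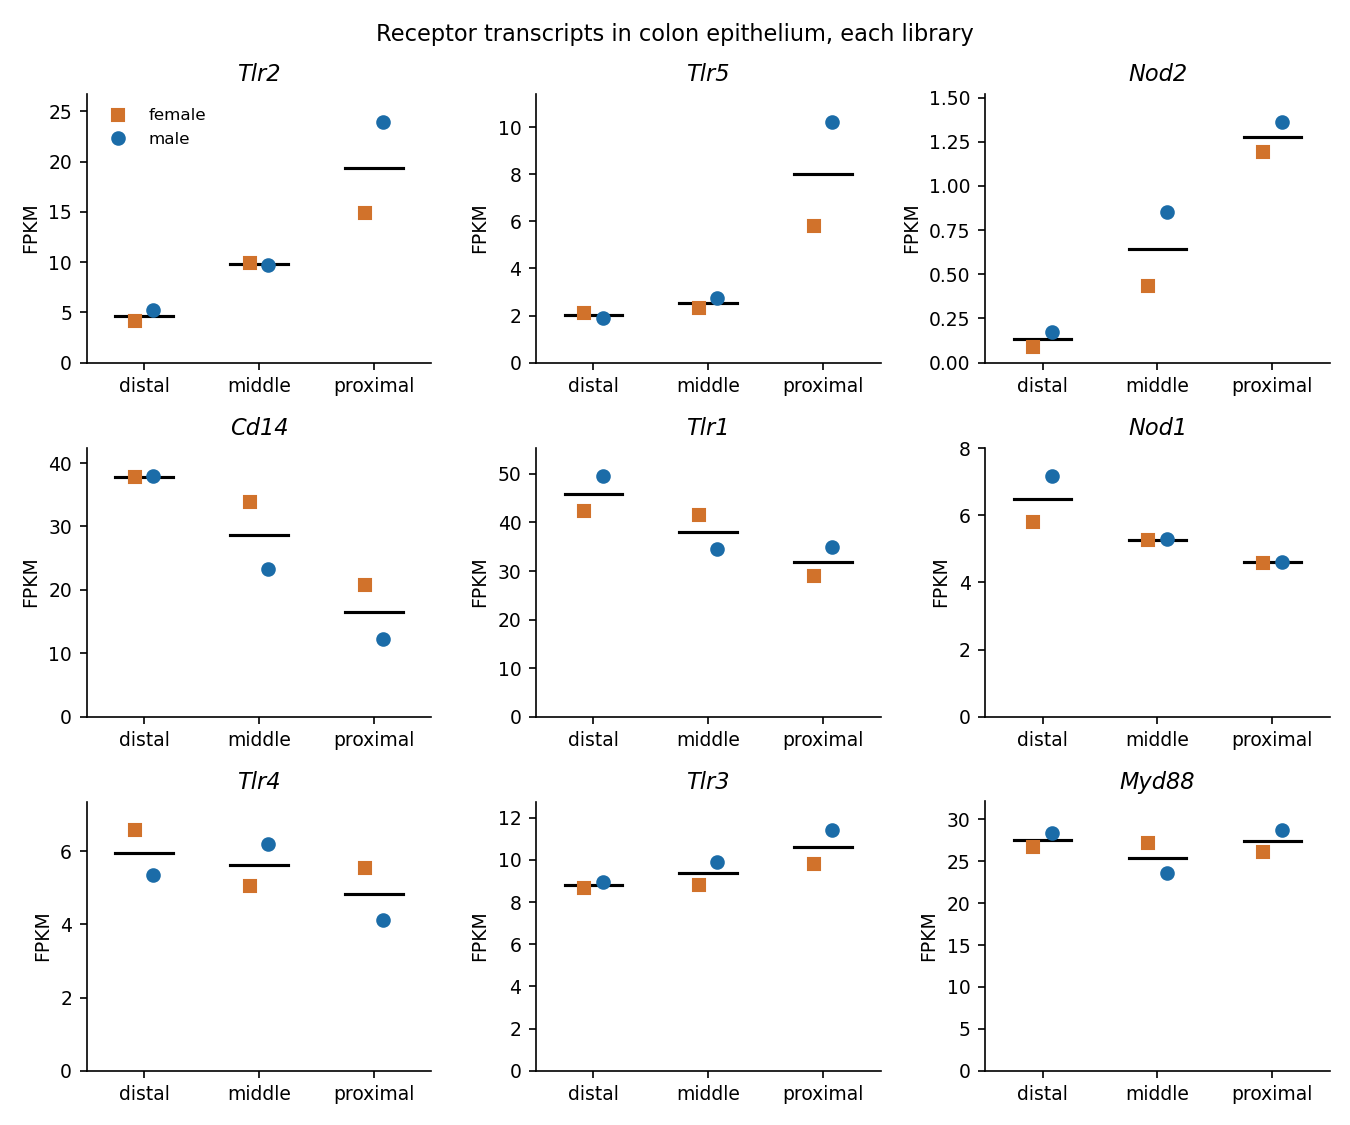
FPKM of 9 receptor, adaptor and coreceptor genes in each library, by colon region. Squares are female and circles male libraries, bars are the mean of the 2 libraries, each vertical axis starts at 0 and has its own range, and Tlr9 (0 in every library) is not drawn. Tlr2, Tlr5 and Nod2 are lowest in distal colon, whereas Cd14 is highest there.

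Among the surface receptors, Tlr2 had the largest log2 difference of FPKM + 1 between the ends of the colon. Its linear ratio of distal to proximal FPKM was 0.277 in the female and 0.218 in the male pair. For Tlr5 the ratio was 0.366 and 0.188, and whether the 2 genes differ was not tested. Tlr2 (ENSMUSG00000027995.10, chromosome 3, 83836272 to 83841767, minus strand, mm10) was at 4.14 and 5.22 FPKM in distal, 9.88 and 9.71 FPKM in middle and 14.9 and 23.9 FPKM in proximal colon. The 3 regions did not overlap, and the female and male libraries gave the same order. For this gene and those below, the share of all genes with such an order was not counted. The distal mean was 4.68 ± 0.768 FPKM, against 19.4 ± 6.38 FPKM in proximal colon (SD, n = 2 each), and the log2 difference of FPKM + 1 was -1.82 (SE 0.18, limma adjusted p = 0.00479). The intermediate steps missed the threshold, at -0.93 for distal against middle colon (SE 0.18, limma adjusted p = 0.129) and -0.88 for middle against proximal colon (SE 0.18, limma adjusted p = 0.0743). Tlr2 was past the threshold between distal and proximal colon under all 13 alternatives run, at -2.08 to -1.56.

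Tlr5, the flagellin receptor, stood out in proximal colon. Tlr5 (ENSMUSG00000079164.8, chromosome 1, 182954788 to 182976044, plus strand) was at 2.12 and 1.91 FPKM in distal, 2.33 and 2.73 FPKM in middle and 5.78 and 10.2 FPKM in proximal colon. Distal and middle colon were close, and both lay below the proximal libraries. The distal mean was 2.01 ± 0.147 FPKM, against 7.97 ± 3.1 FPKM in proximal colon (SD, n = 2 each; log2 difference -1.53, SE 0.23, limma adjusted p = 0.0131). For middle against proximal colon the difference was -1.30 (SE 0.23, limma adjusted p = 0.0562), and for distal against middle colon -0.23 with a 95% interval of -0.79 to 0.34. Without the male distal library the distal against proximal difference was -1.26 and missed the threshold (limma adjusted p = 0.0935).

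Nod2, the sensor of muramyl dipeptide, was near the lower limit of these data. Nod2 (ENSMUSG00000055994.15, chromosome 8, 88647315 to 88688474, plus strand) was at 0.0911 and 0.173 FPKM in distal, 0.435 and 0.854 FPKM in middle and 1.19 and 1.36 FPKM in proximal colon. The regions again did not overlap and kept one order in each sex. With the estimated depth these levels correspond to about 4.53 and 6.79 fragments in distal, 21.5 and 33.9 in middle, and 53.3 and 54.4 in proximal colon. The linear ratio of distal to proximal FPKM was 0.0766 in the female and 0.127 in the male pair. The log2 difference of FPKM + 1 was -1.01 (SE 0.22, limma adjusted p = 0.0388), and -2.59 with 0.1 added in place of 1 (SE 0.56, limma adjusted p = 0.0404), since the larger offset understates the change of a low gene. The call ended with quantile normalization (limma adjusted p = 0.0966) and without the female distal (0.164), male distal (0.28), female middle (0.0612) or male middle library (0.0662). With the filter at 5 FPKM, or without either proximal library, Nod2 no longer passed the filter.

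The start-site regions of these 3 genes are shown because the genes were lower together in distal colon. They run from 250 bases before to 30 bases after the RefSeq start site, 5′ to 3′ in the direction of the gene (GRCm38.p6, the mm10 assembly), with matches to the searched motifs in capitals.
Tlr2 (chr3:83841579-83841858, minus strand): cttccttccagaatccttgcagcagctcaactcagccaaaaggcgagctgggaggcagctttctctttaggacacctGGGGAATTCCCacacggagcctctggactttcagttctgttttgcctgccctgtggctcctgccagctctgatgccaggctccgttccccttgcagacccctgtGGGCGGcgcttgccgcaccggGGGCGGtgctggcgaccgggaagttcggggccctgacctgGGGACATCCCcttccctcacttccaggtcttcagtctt
Tlr5 (chr1:182954538-182954817, plus strand): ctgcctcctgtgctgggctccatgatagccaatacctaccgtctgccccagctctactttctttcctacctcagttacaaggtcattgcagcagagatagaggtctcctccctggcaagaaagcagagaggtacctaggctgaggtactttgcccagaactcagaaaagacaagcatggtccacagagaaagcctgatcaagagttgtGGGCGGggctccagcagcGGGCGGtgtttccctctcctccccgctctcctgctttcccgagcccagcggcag
Nod2 (chr8:88647097-88647376, plus strand): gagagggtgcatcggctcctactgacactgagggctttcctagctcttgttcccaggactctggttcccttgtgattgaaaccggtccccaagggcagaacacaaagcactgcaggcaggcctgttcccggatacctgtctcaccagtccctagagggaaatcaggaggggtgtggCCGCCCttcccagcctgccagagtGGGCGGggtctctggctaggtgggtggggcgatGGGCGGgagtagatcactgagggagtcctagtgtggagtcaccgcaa
The searched motifs were the GC box (GGGCGG), the NF-kB motif, the AP-1 motif (TGANTCA), the Cdx motif (TTTATG) and the TATA box (TATAAA), each on both strands. The GC box matched at positions -69 and -48 from the start site in Tlr2, -42 and -24 in Tlr5, and -74, -50 and -17 in Nod2. At least 2 GC boxes were present in 19.5% of 32851 RefSeq windows of 250 bases before to 50 after a start, and at least 1 in 35.7%. The GC box is not particular to the called genes: 1 was also present in Tlr3, Nod1 and Myd88, so that 6 of the 8 genes with a window held it. The NF-kB motif matched Tlr2 at -173, -172 and -8, of which the first 2 overlap each other, and did not match Tlr5 or Nod2. Of all windows, 4.51% hold it. None of the 3 windows held these letters of the AP-1, Cdx or TATA motif, present in 7.81%, 11.9% and 13.6% of all windows. Of the other 5 genes with a window, Tlr3 held 1 NF-kB match and Tlr1, Nod1, Myd88 and Tlr9 held none. No window was used for Tlr4 and Cd14. A match describes the letters of the window and is no evidence of binding.

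The coreceptor Cd14 ran the other way. Cd14 (ENSMUSG00000051439.7, chromosome 18, 36725067 to 36726798, minus strand), which transfers lipopolysaccharide to TLR4 and MD-2, was at 37.8 and 37.9 FPKM in distal, 33.9 and 23.3 FPKM in middle and 20.7 and 12.3 FPKM in proximal colon. The 3 regions did not overlap, although the female proximal and male middle libraries were close. The distal mean was 37.9 ± 0.0598 FPKM, against 16.5 ± 5.92 FPKM in proximal colon (SD, n = 2 each), and the log2 difference was 1.19 (SE 0.18; adjusted p by limma 0.0145). The differences of 0.42 for distal against middle colon (SE 0.18, limma adjusted p = 0.434) and 0.77 for middle against proximal colon (SE 0.18, limma adjusted p = 0.0974) missed the threshold. Without the male distal library the distal against proximal difference was 0.88 and missed it too (limma adjusted p = 0.0718).

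Cd14 is also a marker of macrophages. The macrophage genes Adgre1 and Csf1r reached at most 0.0998 and 0.205 FPKM in any library, Cx3cr1 0.2 and Aif1 0.299 FPKM, levels far under those of Cd14. Cd68 was at 1.97 and 1.46 FPKM in distal, 1.07 and 2.27 in middle, and 0.733 and 1.55 in proximal colon. Lyz2 was at 0.942 and 0.892 FPKM in distal, 3.79 and 0.588 in middle, and 0.523 and 0.146 in proximal colon, so it was higher in distal than in proximal colon, as Cd14 was. Of the 10 myeloid markers, 5 were higher and 5 lower in distal than in proximal colon in the female pair, and 3 higher and 6 lower in the male pair. The part of macrophages in the Cd14 level was not tested. Within the myeloid list, Ptprc, Tyrobp, Fcer1g and Itgam were each higher in both proximal libraries than in both distal ones. Itgam was at 0.315 and 0.312 FPKM in distal and 1.1 and 0.976 in proximal colon. Some lymphocytes also express Ptprc, Tyrobp and Fcer1g, and which cells these transcripts came from was not tested. Tlr2, Tlr5 and Nod2 were highest in the proximal libraries, as were the summed lymphocyte and myeloid markers. Krt20, a marker of surface colonocytes, was also lower in distal than in proximal colon, whereas the epithelial marker Cdh1 was higher, neither past the threshold. The part of those cells in the levels of the 3 receptor genes was not tested. In bulk RNA, fewer cells of a type and less RNA per cell cannot be told apart.

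**Figure D2:**
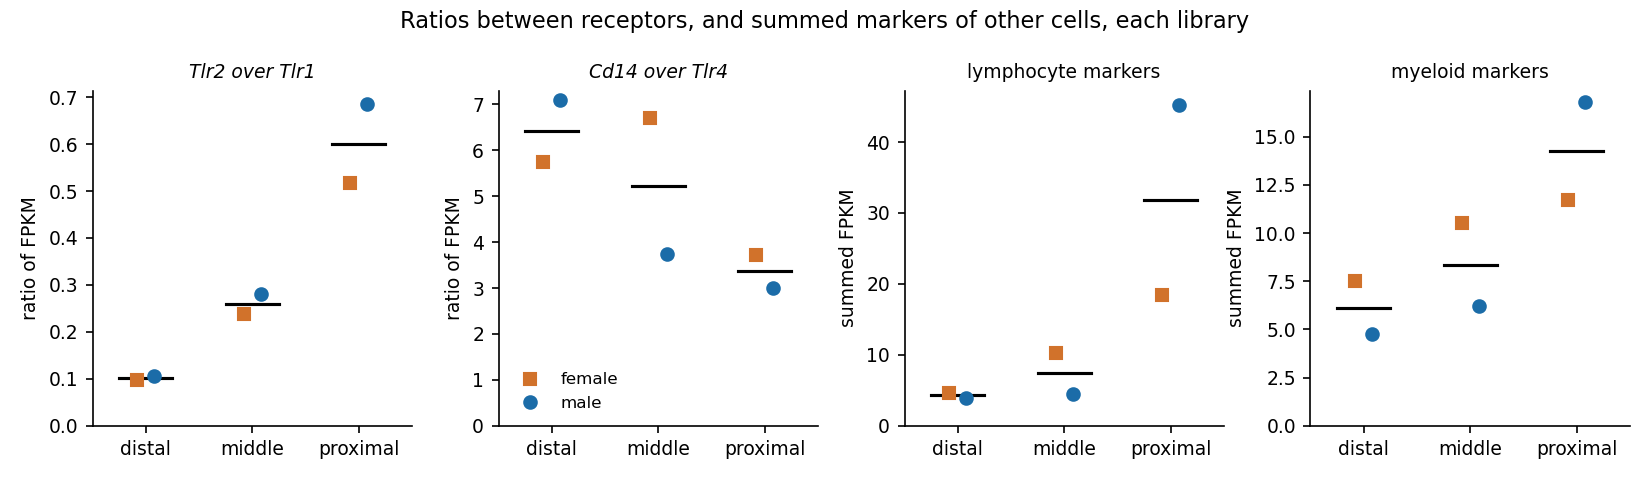
Ratios of FPKM of Tlr2 over Tlr1 and of Cd14 over Tlr4, and summed FPKM of the lymphocyte and myeloid marker lists, in each library by region. Squares are female and circles male libraries, bars are means of the 2 libraries. The Tlr2 over Tlr1 ratio and the marker sums are highest in proximal colon, and the Cd14 over Tlr4 ratio is lowest there.

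Tlr1, the most abundant receptor of the set, was not called. Tlr1 (ENSMUSG00000044827.10, chromosome 5, 64924679 to 64933563, minus strand), which pairs with TLR2, was at 42.3 and 49.5 FPKM in distal, 41.6 and 34.6 FPKM in middle and 28.9 and 35.0 FPKM in proximal colon. Both distal libraries were above all others, whereas middle and proximal colon overlapped. The log2 difference between distal and proximal colon was 0.51 (95% interval 0.13 to 0.90, limma adjusted p = 0.0922); without either middle library it passed (limma adjusted p = 0.0476 without the female one and 0.0471 without the male one). The ratio of Tlr2 to Tlr1 FPKM was 0.0977 and 0.106 in distal, 0.237 and 0.28 in middle, and 0.517 and 0.685 in proximal colon. Tlr6, the alternative partner, was at 0.126 and 0.212 FPKM in distal, 0.211 and 0.262 in middle, and 0.233 and 0 in proximal colon. Tlr1 and Tlr6 are close copies over part of their length. Of the 50-base stretches of annotated Tlr1 transcripts, 13.6% also occur in Tlr6 transcripts. Reads from that shared part can be exchanged, and their split there is uncertain.

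Tlr4, the lipopolysaccharide receptor (ENSMUSG00000039005.13, chromosome 4, 66827584 to 66930284, plus strand), was low throughout. It was at 6.57 and 5.34 FPKM in distal, 5.06 and 6.21 FPKM in middle and 5.55 and 4.11 FPKM in proximal colon. The regions overlapped, and the log2 difference between distal and proximal colon was 0.26 (95% interval -0.20 to 0.72, limma adjusted p = 0.42). Ly96, which encodes the TLR4 coreceptor MD-2, was at 15.3 and 11.7 FPKM in distal, 8.83 and 5.64 FPKM in middle and 9.76 and 7.78 FPKM in proximal colon. Its distal libraries were above all others, and it was called as higher in distal than in proximal colon (log2 difference 0.57, SE 0.12, limma adjusted p = 0.0377). Both coreceptors of TLR4 were thus called, and Tlr4 itself was not; whether they differ from Tlr4 was not tested. The ratio of Cd14 to Tlr4 FPKM was 5.75 and 7.1 in distal, 6.7 and 3.75 in middle, and 3.73 and 3.0 in proximal colon.

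Tlr3, an endosomal receptor (ENSMUSG00000031639.12, chromosome 8, 45395665 to 45411080, minus strand), varied little, at 8.66 and 8.94 FPKM in distal, 8.83 and 9.88 FPKM in middle and 9.81 and 11.4 FPKM in proximal colon. The distal libraries lay below the proximal ones by a log2 difference of -0.24 (95% interval -0.52 to 0.04, limma adjusted p = 0.231). An annotated gene, Gm45542, overlaps exons of Tlr3 and shares 5.3% of its 50-base stretches, and its reads could be counted with Tlr3. Tlr9 (ENSMUSG00000045322.10, chromosome 9, 106222598 to 106226883, plus strand) was listed at 0 in all 6 libraries, as were Tlr7 and Tlr11. Tlr8, Tlr12 and Tlr13 were at most at 0.169, 0.084 and 0.0531 FPKM, and none of the 6 Toll-like receptor genes outside the set of 10 passed the filter. A value of 0 is a listed value and not a measured absence.

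Nod1, the sensor of diaminopimelic acid-type peptidoglycan (ENSMUSG00000038058.14, chromosome 6, 54923949 to 54972612, minus strand), was at 5.8 and 7.16 FPKM in distal, 5.26 and 5.28 FPKM in middle and 4.57 and 4.62 FPKM in proximal colon. The regions did not overlap, with the highest levels in distal colon, the reverse of the order of Nod2. The log2 difference between distal and proximal colon was 0.41 (95% interval 0.07 to 0.76), which missed the threshold over all genes (limma adjusted p = 0.116). The adaptor Myd88 (ENSMUSG00000032508.8, chromosome 9, 119335934 to 119341411, minus strand) was at 26.7 and 28.4 FPKM in distal, 27.2 and 23.6 FPKM in middle and 26.1 and 28.7 FPKM in proximal colon. Its regions overlapped, with a log2 difference of 0.01 between distal and proximal colon (95% interval -0.29 to 0.31, limma adjusted p = 0.978). Exons of Acaa1a overlap those of Myd88 and share 7.42% of its 50-base stretches. How strand was treated in counting is not given in the sources used here, so reads there cannot be assigned to either gene with certainty.

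**Figure D3:**
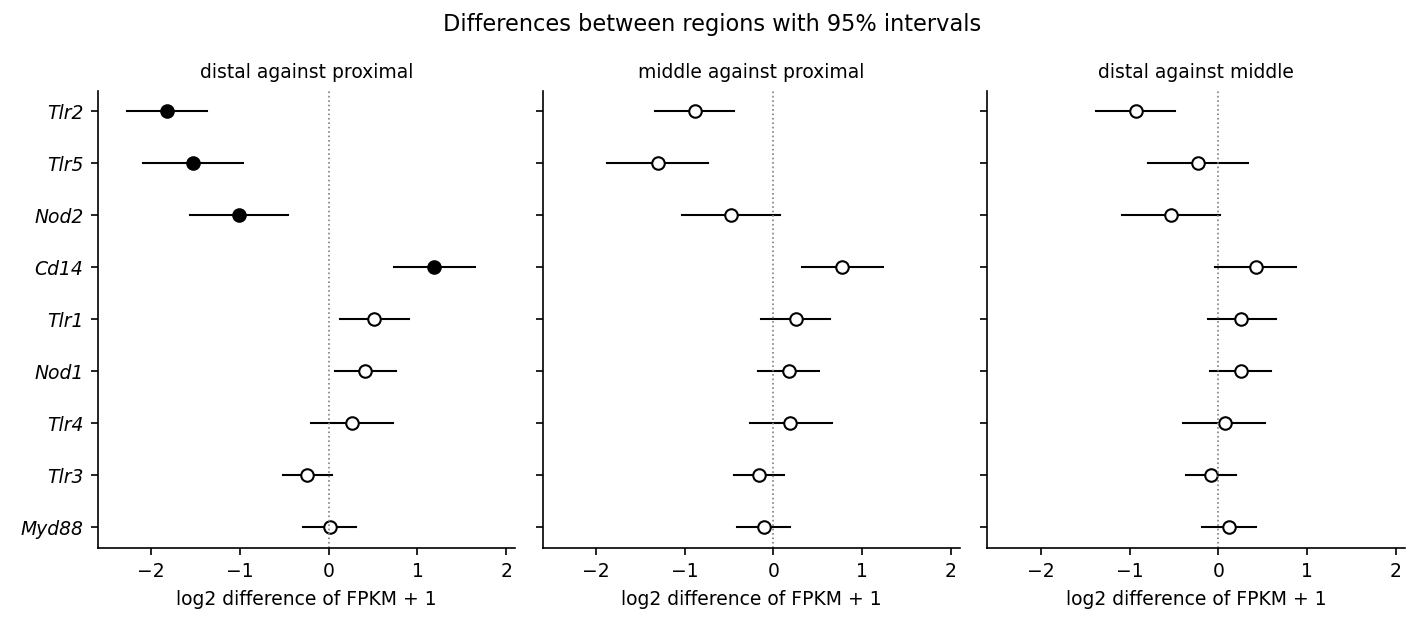
Log2 differences of FPKM + 1 for 9 genes in 3 comparisons of colon regions. Points are limma estimates, lines 95% intervals and filled points those with a limma adjusted p under 0.05. Filled points occur only for Tlr2, Tlr5, Nod2 and Cd14 between distal and proximal colon.

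In the comparisons with the middle colon, limma called 0 of the 9 genes. For middle against proximal colon, 3 genes had an unadjusted p under 0.05 (Tlr2, Tlr5 and Cd14), as had 18.3% of all genes, and 2.45% of all genes were called, 1.19% higher and 1.25% lower. Without the female proximal library these 3 genes were called, with Tlr2 at -1.14 and Tlr5 at -1.65 (adjusted p by limma 0.0168 for Tlr2, 0.0103 for Tlr5 and 0.0312 for Cd14), while the share of all genes called was 6.67%. For distal against middle colon, 1 gene had an unadjusted p under 0.05 (Tlr2), as had 12.7% of all genes, and 0.499% of all genes were called, 0.11% higher and 0.389% lower. Without either proximal library Tlr2 was called here at -0.93 (adjusted p by limma 0.0205 without the female and 0.0224 without the male one), while 3.66% of all genes were called without the female and 3.54% without the male one. The 3 comparisons share libraries and are not independent of one another. For female against male libraries, with 3 of each that come from different regions, limma also called 0 of the 9 genes, and 0.0423% of all genes, 0.00846% higher and 0.0339% lower. The female libraries were also estimated as deeper (8.94 to 9.92 M fragments) than the male ones (7.85 to 8.0 M), so sex and depth cannot be told apart. Between female and male libraries Cd14 had an unadjusted p under 0.05, as had 10.6% of all genes; its log2 difference was 0.41 (SE 0.15; adjusted p by limma 0.451), and its level was higher in the female library in middle and proximal colon but not in distal colon. Without the filter on low values, limma called 4 of the receptor genes between distal and proximal colon, beside 6.98% of all genes, 0 between middle and proximal colon, beside 0.0234%, and 0 between distal and middle colon, beside 0.0117%.

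Genes whose centred log2 profile over the 6 libraries lay closest to those of the 4 called receptors were found among 8655 or 8656 candidates with a mean of at least 5 FPKM. For Tlr2 they were Hsd3b3, a hydroxysteroid dehydrogenase, and Lgals9, which encodes galectin-9, each at a root mean square distance of 0.121. Lgals9 was at 18.6 and 23.8 FPKM in distal, 37.6 and 42.9 in middle, and 54.3 and 79.1 in proximal colon. For Tlr5 they were Adh5, a formaldehyde dehydrogenase (0.0997), and Ugdh, which makes UDP-glucuronic acid (0.105). For Nod2 they were Car13, a carbonic anhydrase (0.067), and Osbpl7, an oxysterol-binding protein relative (0.0699). For Cd14 they were Nt5c3, a pyrimidine nucleotidase (0.0424), and Tma16 (0.0822). Nt5c3 was at 90.7 and 94.7 FPKM in distal, 87.4 and 57.2 in middle, and 49.2 and 30.7 in proximal colon. With so few libraries and so many candidates, close profiles are a description only.

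The listed pathway genes cover other receptors, coreceptors and inflammasome genes as well as signalling genes and NF-kB targets. Most of them were not called between distal and proximal colon, as was true of all genes tested. Of 98 listed pathway genes, 70 passed the filter, of which limma called 8 as higher and 4 as lower and did not call the other 58. That is 17.1% called, beside 14.1% of all genes, with a median log2 difference of -0.07 beside 0.01. Among those called are Cxcl5 and Nlrp10, which passed the filter only through libraries where they were high, so their entry depended on that. Without the filter on low values the count of pathway genes called was 3, beside 6.98% of all genes. Without sex as a block in the model it was 7, beside 10.5% of all genes. Leaving out 1 library leaves 1 in a region. The count and the share of all genes called then both fell, most without the male distal library. In each comparison with the middle colon limma called 0 of the 70, with 13 at an unadjusted p under 0.05 for middle against proximal colon (18.6%, beside 18.3% of all genes) and 9 for distal against middle colon (12.9%, beside 12.7%). The list of Toll adaptors and their kinases had 0 of 10 called by limma (1 at an unadjusted p under 0.05, a level reached by 29.2% of all genes). Its most abundant members, Ticam1, the adaptor of TLR3, and Irak2, a kinase bound by MyD88, differed by -0.08 and -0.07. The list of TAK1, IKK and NF-kB subunits had 0 of 13 called (3 at an unadjusted p under 0.05), and its most abundant members Irf3 and Tab2 differed by 0.10 and -0.28.

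In the Nod pathway list 1 of 8 genes was called (12.5%, beside 14.1% of all genes). Birc3, a ubiquitin ligase of the NOD and TNF pathways, was at 28.9 and 29.3 FPKM in distal, 27.7 and 19.7 FPKM in middle and 17.2 and 16.4 FPKM in proximal colon (log2 difference between distal and proximal colon 0.76, SE 0.15, limma adjusted p = 0.0276). Ripk2, the kinase shared by NOD1 and NOD2, was not called (-0.32, limma adjusted p = 0.34), nor were the abundant Casp8 (-0.46) and Rbck1 (-0.04). In the coreceptor and trafficking list Ly96 was called alone among 6 genes (16.7%, beside 14.1% of all genes). The chaperone Hsp90b1 (-0.07) and Unc93b1 (0.14), which carries endosomal receptors, were its most abundant members and were not called. Among negative regulators 1 of 13 was higher and 2 were lower (23.1% called, beside 14.1% of all genes). Tnip1, which restrains NF-kB with A20, rose by 0.69 (SE 0.09, limma adjusted p = 0.0108), whereas Socs1, an inhibitor of cytokine signalling, fell by 1.56 (SE 0.23, limma adjusted p = 0.013) and the nuclear receptor gene Pparg fell by 1.08 (SE 0.19, limma adjusted p = 0.0222). Nfkbia, an inhibitor and target of NF-kB, differed by -0.27 and was not called.

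The other NOD-like receptors and inflammasome genes had 4 of 12 higher and 1 lower in distal colon. That is 41.7% called, beside 14.1% of all genes (6.47% higher and 7.64% lower). The list's median difference was 0.15, beside 0.01 over all genes tested. Il18, a cytokine matured by inflammasomes, was at 139 and 187 FPKM in distal, 145 and 111 FPKM in middle and 64.2 and 27.4 FPKM in proximal colon (log2 difference between distal and proximal colon 1.91, SE 0.36, limma adjusted p = 0.0253). Nlrp10, Nlrx1, a mitochondrial NOD-like receptor, and Nlrp1b rose by 0.86 to 1.25 on the log2 scale, though Nlrp10 was at 0.81 and 0.0292 FPKM in proximal colon and passed the filter only through its distal and female middle libraries, so its entry depended on being high there. Casp4, the caspase that senses intracellular lipopolysaccharide, fell by 0.84 (limma adjusted p = 0.0409). The abundant Casp1 and Pycard, the shared protease and adaptor of inflammasomes, differed by -0.19 and 0.14 and were not called. For flagellin, the cytosolic sensor gene Naip5 was at 32.5 and 41.7 FPKM in distal, 39.5 and 56.7 in middle, and 52.3 and 47.8 in proximal colon, and its partner Nlrc4 was at 14.2 and 12.5 FPKM in distal, 11.7 and 15.9 in middle, and 15.1 and 15.6 in proximal colon. Both genes were lower in the distal than in the proximal libraries, as Tlr5 was. Neither was called (limma adjusted p = 0.163 for Naip5 and 0.5 for Nlrc4), and the Naip genes are close copies whose reads can be exchanged. With 2 libraries a region, a missed threshold does not show equal levels. Whether these genes differ from Tlr5 in their change was not tested.

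Of the NF-kB target genes, 1 of 8 was higher and 1 lower (25% called, beside 14.1% of all genes). Cxcl5, a neutrophil chemokine, was at 1.11 and 1.14 FPKM in distal and 0.154 and 0 FPKM in proximal colon, and passed the filter only through its distal libraries (log2 difference 0.98, limma adjusted p = 0.0482). Nfkbiz, a nuclear regulator of NF-kB, fell by 0.78 (SE 0.17, limma adjusted p = 0.0374). Sod2, a mitochondrial superoxide dismutase and the most abundant of the list, differed by 0.06 and was not called.

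**Figure D4:**
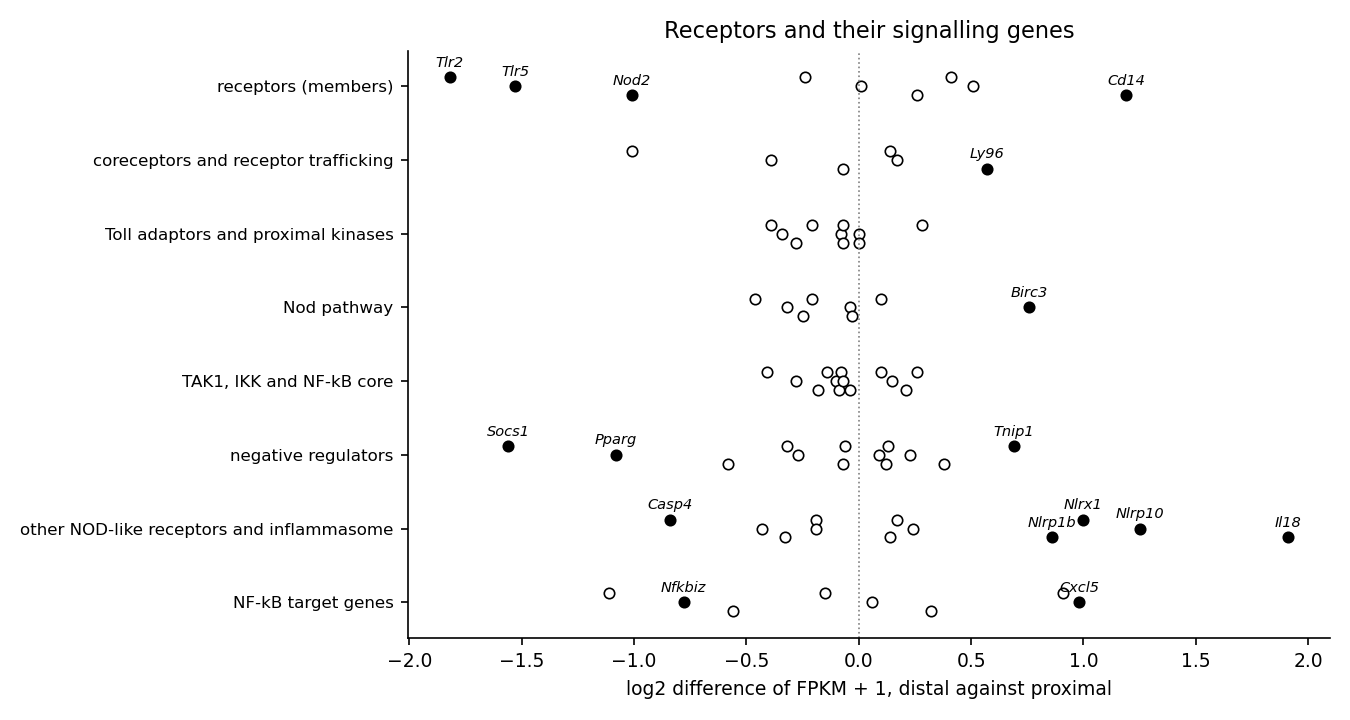
Log2 differences of FPKM + 1 between distal and proximal colon for the receptor genes and 7 lists of pathway genes that passed the filter on low values. Each point is a gene, spread vertically only for legibility, and filled points, labelled by name, have a limma adjusted p under 0.05. Of the 70 pathway genes 12 are filled, and the lists with no filled point are the Toll adaptors and kinases and the TAK1, IKK and NF-kB core.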

How the data were processed

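RNA was measured in 6 libraries of colon epithelium. Total RNA was made into stranded mRNA libraries, per the labels' protocols. The authors deposited FPKM per gene for each library. Per the submitters' processing notes, the build was mm10 and the tools were Cuffdiff 2.2.1, SAMtools 0.1.18, Bowtie2 2.2.8 and TopHat2 2.1.1; for settings, annotation and strand handling the sources used here give nothing. No count model was used, since FPKM is no count.

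The filter (1 FPKM or more in 2 or more libraries) left 11815 of 24346 entries. For these, limma 3.58.1 (R 4.3.3) fitted region and sex to log2(FPKM + 1) of all 6 libraries, with a variance trend, 2 residual and 3.49 prior degrees of freedom, and Benjamini-Hochberg adjustment over all kept genes. The offset of 1 understates changes of low genes. Sex pairs the libraries across regions, as a term of the model, because the labels give each region 1 library of each sex.

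Depth was estimated from 1-transcript genes over 1500 bases (values under 0.2 FPKM), taking fragments as 200 bases long, and is approximate. Gene positions are from GENCODE M21, promoter windows from RefSeq. All 10 receptor genes are described. From each of 8 pathway lists, up to 4 called genes (largest differences) and the 2 most abundant are named; Ripk2, Pycard, Casp4, Naip5, Nlrc4 and the Toll-like receptor genes outside the set of 10 were named after their values were seen. The receptor genes and lists were chosen with earlier results of these data known. Alternatives were an offset of 0.1, a filter at 5 FPKM or none, scaling by quantiles or by median ratios, no variance trend, no sex term and each library left out. Figures were drawn with matplotlib 3.10.9 in Python 3.11.15.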

Additional observations from a re-analysis of the deposited data

Results flagged for a closer look

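Tlr4 moved in opposite directions in the 2 sexes in 2 comparisons, each with 1 library a side, so the difference between the sexes was not tested. For middle against proximal colon its log2 change of FPKM + 1 was -0.11 in the female pair of libraries and 0.50 in the male pair. For distal against middle colon it was 0.32 in the female pair and -0.19 in the male pair.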

How the results depend on the processing

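For distal against proximal colon, 4 receptor genes were called. Leaving out 1 library gave 1 to 4, with the lowest count, Tlr2 alone, without the male distal library, where the share of all genes called was 2.85% in place of 14.1%. Leaving out 1 library gave 0 to 3 for middle against proximal colon (3 without the female proximal, 1 without the male distal library) and 0 to 1 for distal against middle colon (1 without either proximal library), and 0 for female against male libraries. The pathway genes called between distal and proximal colon were 12, against 3 with no filter, 7 with no replicate block (sex left out) and 0 to 11 with 1 library left out. With 1 library left out they were 0 to 3 for middle against proximal and 0 to 3 for distal against middle colon. These fits leave 1 library in a region and take its scatter to be that of the rest. Removing the block changed no call of a receptor gene. Of the values of single receptor genes under these alternatives, 424 kept their direction and side of the threshold, 7 lost the call, 8 gained one and 17 changed sign without being called in either run; the cause was not tested. Runs in which Nod2 did not pass the filter are not in this tally. With 2 libraries a region, differences under about the size of the intervals given cannot be shown, and Nod2 rests on few fragments.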
